A study of Mus musculus with 18 samples.

Results

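Superoxide dismutases, catalase and metallothioneins are the enzymes and metal-binding proteins examined here, and 7 genes were chosen by name: Sod1, Sod2, Sod3, Cat, Mt1, Mt2 and Mt3. They are 7 of the 35006 gene names in the count files, and all 7 passed the filter on low counts that left 16183 genes for testing. The 18 libraries, made from poly(A) RNA of male mouse retinas, came from 2 genotypes with or without treatment. WT animals were C57BL/6J mice with normal glucose. Akita mice (C57BL/6-Ins2Akita/J) carry 1 mutant copy of the insulin gene Ins2, whose misfolded product harms pancreatic beta cells and leaves the animals diabetic. NACET, the ethyl ester of N-acetylcysteine, reached the treated mice through their water (0.33 mg/mL, meant to give 50 mg/kg each day) from week 4 to week 24 of age. The other groups drank plain water. The groups held 3 WT, 6 WT + NACET, 4 Akita and 5 Akita + NACET libraries. No source states whether each library came from 1 mouse, so the p-values measure the spread between these libraries.

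Superoxide dismutases turn superoxide into hydrogen peroxide: Sod1 acts in the cytosol with copper and zinc, Sod2 in mitochondria with manganese, and Sod3 is secreted to the extracellular space. Catalase, encoded by Cat, breaks hydrogen peroxide down in peroxisomes. Metallothioneins are small cysteine-rich proteins that bind zinc and copper. Mt1 and Mt2 are induced by metals, glucocorticoids and oxidants and in the retina are known mainly from glia and pigment epithelium, whereas Mt3 is a form of nervous tissue.

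The metallothionein genes are printed first with their promoters. Metals act on Mt1 and Mt2 through the metal response element, a short motif bound by the zinc-sensing factor MTF1. Each window runs from 250 bases before to 50 bases after the gene start in RefSeq, on GRCm38.p6, which is not the build of the counts (mm9). Of the 7 genes, 6 had an entry. Capitals mark the letters TGCACNC or TGCGCNC found on either strand.
Mt1, chr8:94178839-94179138, plus strand: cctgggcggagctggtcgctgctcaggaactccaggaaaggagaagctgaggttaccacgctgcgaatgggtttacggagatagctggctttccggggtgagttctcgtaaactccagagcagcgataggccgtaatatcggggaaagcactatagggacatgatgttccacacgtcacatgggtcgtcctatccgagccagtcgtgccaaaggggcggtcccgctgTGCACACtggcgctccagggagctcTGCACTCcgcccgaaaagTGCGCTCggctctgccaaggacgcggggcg
Mt2, chr8:94172368-94172667, plus strand: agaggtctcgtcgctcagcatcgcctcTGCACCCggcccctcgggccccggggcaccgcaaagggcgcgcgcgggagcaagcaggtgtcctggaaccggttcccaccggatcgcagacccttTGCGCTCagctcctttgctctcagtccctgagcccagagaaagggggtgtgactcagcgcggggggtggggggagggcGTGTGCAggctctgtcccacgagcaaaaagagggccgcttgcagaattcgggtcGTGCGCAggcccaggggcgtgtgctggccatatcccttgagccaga
Mt3, chr8:94152357-94152656, plus strand: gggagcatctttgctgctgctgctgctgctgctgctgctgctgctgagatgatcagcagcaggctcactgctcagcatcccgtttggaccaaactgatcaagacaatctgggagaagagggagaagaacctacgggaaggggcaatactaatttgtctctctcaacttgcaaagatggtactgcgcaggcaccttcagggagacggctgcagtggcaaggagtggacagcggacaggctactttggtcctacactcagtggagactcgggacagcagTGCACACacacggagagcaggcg
The Mt2 window held 4 matches, the Mt1 window 3 and the Mt3 window 1. Among all 32851 promoter windows of the same length, 25.7% held at least 1 match, 1.97% at least 3 and 0.517% at least 4. The windows of Sod1, Sod2 and Cat held 0. The core of the antioxidant response element, TGACNNNGC on either strand, occurred once in the Mt2 window at bases -79 to -71 from the start and once in the Sod1 window at bases -56 to -48, against 12.4% of all windows with at least 1. These letters can also hold an AP-1 site, and a match is a description of the sequence, not evidence of binding. Sequence outside the windows was not searched, so a motif absent from a window may still lie near the gene.

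On the build of the counts, the 3 metallothionein genes were neighbours on the plus strand of chromosome 8, Mt3 at 96676507 to 96678048, Mt2 at 96696518 to 96697467 and Mt1 at 96702989 to 96704225. Sod1 lay on chromosome 16 at 90220987 to 90226567, Sod2 on chromosome 17 at 13200705 to 13210985, Sod3 on chromosome 5 at 52755185 to 52762644, and Cat on the minus strand of chromosome 2 at 103294006 to 103325317. No other annotated gene overlapped any of the 7. Their counts were summed over all exons, UTRs included. Close copies elsewhere in the genome make some of the counts uncertain. A stretch of 613 bases on chromosome 6 at 67155508 to 67156120 matched the Sod1 transcript at 97.2% identity and covered nearly all of it, and for Sod2 a stretch of 1424 bases on chromosome 17 at 13909112 to 13910535 matched the end of the transcript, also at 97.2%. In all, Sod2 had 842 matches of at least 50 bases and 95% identity on 23 chromosomes, together covering 36.8% of its transcript, and Sod3 had 26 such matches covering 2.1%. The metallothionein transcripts had no match of at least 50 bases and 95% identity outside their own loci.

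Between 11495596 and 17814480 counts per library fell in genes. The Mueller glia gene Glul had a mean of 836 CPM (counts scaled to library size with TMM factors), and all 11 rod markers were detected, so that defining genes of retina were present. Libraries differed in ways that touch the results below. The percentage of uniquely aligned reads lying outside exons (the outside-exon share) was 16.3% in WT, 12.7% in WT + NACET, 11.5% in Akita and 16.4% in Akita + NACET on average. Akita replicate 4 had the lowest TMM factor (0.803). Summed over 18 lens genes, the level was 26824 CPM in WT + NACET replicate 5 against a median of 13.4 CPM over all libraries. Summed over 10 pigment epithelium markers, it ran from 166 to 810 CPM in WT, 677 to 1552 CPM in WT + NACET, 83.6 to 309 CPM in Akita and 105 to 727 CPM in Akita + NACET. In such bulk tissue, fewer cells of a type and less RNA per cell cannot be told apart.

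Levels are compared between genes only as CPM per kilobase of exon, since the 7 genes differ in length. Over all 18 libraries, Mt1 had the highest mean at 71.1 ± 18.5 (SD) CPM per kilobase, followed by Sod1 at 60.9 ± 8.76, Sod2 at 42.0 ± 5.22, Mt3 at 30.8 ± 6.35, Mt2 at 14.5 ± 4.49, Cat at 13.8 ± 2.82 and Sod3 at 2.84 ± 3.97. In Akita the order of the first pair turned, with Sod1 at 60.2 ± 9.16 and Mt1 at 51.2 ± 12.9 CPM per kilobase (SD, n = 4). Neighbours in this order overlapped in range throughout. Sod2 exceeded Mt3 in 18 of 18 libraries and Mt3 exceeded Mt2 in 18 of 18, whereas Mt1 exceeded Sod1 in 11 and Mt2 exceeded Cat in 8. The fourth metallothionein gene, Mt4, had 0 counts in every library.

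**Figure D1:**
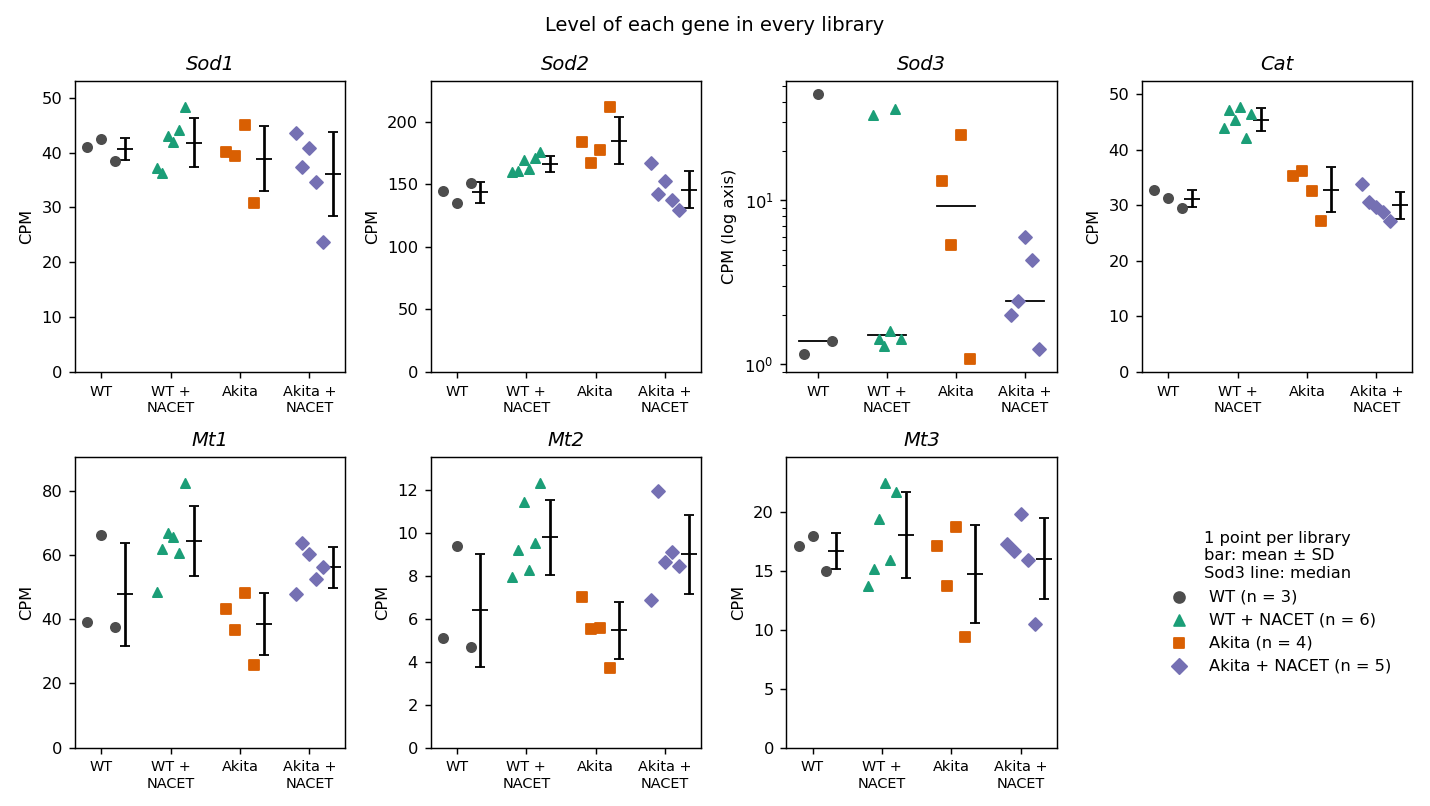
Level of each of the 7 genes in CPM, 1 point per library, by group (WT n = 3, WT + NACET n = 6, Akita n = 4, Akita + NACET n = 5). Bars give the mean and SD, the Sod3 panel has a log axis and lines at the medians. Cat in WT + NACET lies above every other library, Sod2 is highest in Akita, and Sod3 spans 1.08 to 44.4 CPM, with high and low libraries in WT, WT + NACET and Akita.

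The mitochondrial enzyme gene Sod2 was higher in the diabetic retina and lower in Akita + NACET. Its level was 144, 135 and 151 CPM in the WT libraries and 183, 167, 177 and 211 CPM in the Akita libraries. In Akita + NACET it was 167, 143, 152, 137 and 129 CPM. In WT + NACET the lowest value was 159, the median 166 and the highest 175 CPM. Every Akita library exceeded every WT library, 4 of 5 Akita + NACET libraries lay below all Akita libraries, and all 6 WT + NACET libraries lay above all WT libraries. Tested with edgeR's quasi-likelihood test and Benjamini-Hochberg adjustment over all 16183 genes, Sod2 was 1.29-fold higher in Akita than in WT (log2 0.36 ± 0.09 SE, adjusted p = 0.0271). It was lower in Akita + NACET than in Akita (log2 -0.34 ± 0.08 SE, edgeR adjusted p = 0.0210). Its rise in WT + NACET over WT was smaller and did not pass (log2 0.21 ± 0.09 SE, edgeR adjusted p = 0.188). The NACET effects in the 2 genotypes differed, with an interaction of -0.55 ± 0.12 SE on the log2 scale (edgeR adjusted p = 0.00552). Akita + NACET and WT differed by 0.022 on the log2 scale, with a 95% interval from -0.15 to 0.20, and Akita + NACET against WT + NACET gave -0.19 ± 0.07 SE (edgeR adjusted p = 0.0887).

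Both Sod2 calls were lost in some other fits, in which the calls over all 16183 genes also fell. With only the 2 compared groups in the edgeR fit the adjusted p was 0.103 in Akita vs WT and 0.0696 in Akita + NACET vs Akita, and with the pigment epithelium sum as a covariate, tried after the data were seen, it was 0.0637 and 0.0733. In these fits 148 and 700 genes in all, and 303 and 0 genes, were called in place of 1237 and 1562. Without WT replicate 1 the adjusted p of Akita vs WT was 0.118, without WT replicate 2 it was 0.120 and without Akita replicate 4 it was 0.0797, where 0, 0 and 234 genes in all were called. For Akita + NACET vs Akita it was 0.0722 without Akita replicate 4 and 0.0582 without Akita + NACET replicate 5, where 1 and 101 genes in all were called. Sod2 moved closely with the outside-exon share (r = -0.83, permutation p = 4e-05, adjusted p = 0.00028 over 7 genes; rho = -0.87, permutation p = 2e-05, adjusted p = 0.00014; n = 18 libraries). This r was -0.79 without the 2 libraries farthest from the median share and -0.61 after the group means were removed. With that share as a covariate in the edgeR fit, the Sod2 difference was 0.21 in Akita vs WT (adjusted p = 0.392), -0.19 in Akita + NACET vs Akita (adjusted p = 0.631) and -0.29 for the interaction (adjusted p = 0.580), so none of the 3 calls held. Over all genes, 0, 0 and 17 were called in that fit, so the loss was not particular to Sod2. The summed level of 11 rod markers also moved with Sod2 (r = 0.87, permutation p = 1e-05, the smallest that 100000 permutations can give, adjusted p = 0.00063 over 63 pairs of gene and marker list; rho = 0.77, permutation p = 0.00027, adjusted p = 0.00567). It was 0.74 without the 2 farthest libraries and 0.68 within groups, and all 11 rod markers were detected. Of these, 3 were called higher in Akita than in WT, against 7.64% of all genes. In Akita + NACET vs Akita 8 were called lower, against 9.65% of all genes. For the interaction 10 were called negative, against 20.3% of all genes, with a list median of -0.71 on the log2 scale. The part of rod RNA in the Sod2 result was not tested. The rod marker sum was 104620 to 142220 CPM in WT, 129070 to 171700 CPM in WT + NACET, 148880 to 224310 CPM in Akita and 95570 to 130290 CPM in Akita + NACET. Sod2 moved against the sum of endothelial markers (r = -0.73, permutation p = 0.00065, adjusted p = 0.00532, and rho = -0.62, permutation p = 0.00739, adjusted p = 0.0358). This r was -0.65 without the 2 farthest libraries and -0.64 within groups. The part of endothelial RNA in the Sod2 result was not tested.

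**Figure D2:**
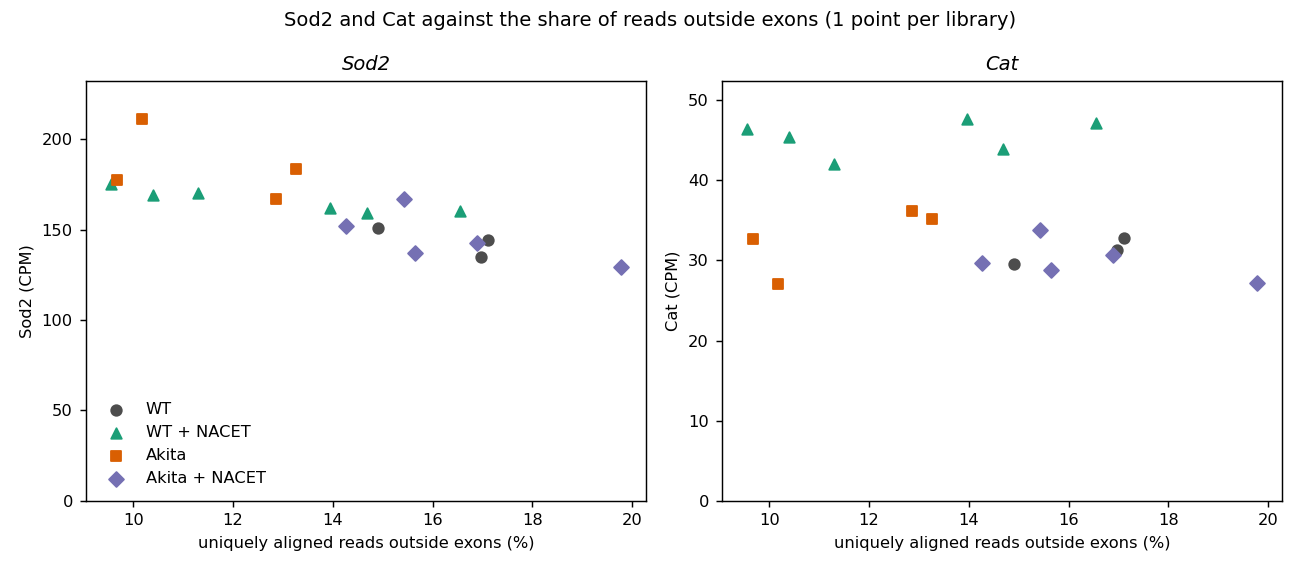
Sod2 (left) and Cat (right) in CPM against the percentage of uniquely aligned reads outside exons, 1 point per library, by group. Sod2 falls as the share rises (r = -0.83), while the 6 WT + NACET libraries keep the highest Cat level, 42.1 to 47.6 CPM, over shares from 9.55% to 16.5%.

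Sod1, the cytosolic enzyme, did not pass the test in any comparison. It had 41.0, 42.5 and 38.5 CPM in WT and 40.1, 39.4, 45.1 and 30.8 CPM in Akita. In Akita + NACET the values were 43.5, 37.4, 40.8, 34.7 and 23.7 CPM, and in WT + NACET the lowest was 36.2, the median 42.5 and the highest 48.2 CPM. All groups overlapped, and the lowest library of each diabetic group, Akita replicate 4 and Akita + NACET replicate 5, widened the spread. The difference between Akita and WT was -0.06 on the log2 scale, with a 95% interval from -0.37 to 0.24, and that between Akita + NACET and Akita was -0.11, with an interval from -0.38 to 0.16.

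Sod3, the secreted enzyme, varied more between libraries of a group than the other 6 genes. Its level was 1.15, 44.4 and 1.38 CPM in WT, and 13.0, 5.33, 25.1 and 1.08 CPM in Akita. In Akita + NACET it was 1.998, 2.42, 6.00, 4.35 and 1.24 CPM. In WT + NACET replicates 1 and 5 reached 33.3 and 35.8 CPM while the other 4 libraries lay between 1.29 and 1.59 CPM. Libraries of 1 group thus lay near either end of the range, which ran from 13 to 603 counts. Its biological coefficient of variation was 1.22, against 0.186 for the common dispersion, and ranked 22nd from the highest among 11305 genes of at least 5 CPM. No comparison called it. In Akita vs WT its log2 difference was -0.46 with a 95% interval from -3.24 to 2.32, and leaving out WT replicate 2 turned this to 3.13.

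Among the genes most like Sod3 over the 18 libraries, by Pearson's r of log2 CPM among genes of at least 5 CPM, were Mfap4 (r = 0.988), a microfibril protein gene, and F5 (r = 0.985), which encodes coagulation factor V. In all, 15 genes exceeded 0.95. Optc, which encodes opticin, a vitreous proteoglycan made by the ciliary body, ranked 5 at 0.981 and was picked out after its value was seen. Optc was at 50.4 CPM in WT replicate 2, and at 51.0 and 44.7 CPM in WT + NACET replicates 1 and 5, the libraries with the most Sod3, and at 2.23 CPM or less in the other WT and WT + NACET libraries. The lens genes did not share this pattern: WT replicate 2 and WT + NACET replicate 1 had lens sums of 27.3 and 7.30 CPM beside Sod3 levels of 44.4 and 33.3 CPM, although WT + NACET replicate 5 was high in both. How much of the Sod3 RNA came from tissue other than retina was not tested.

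**Figure D3:**
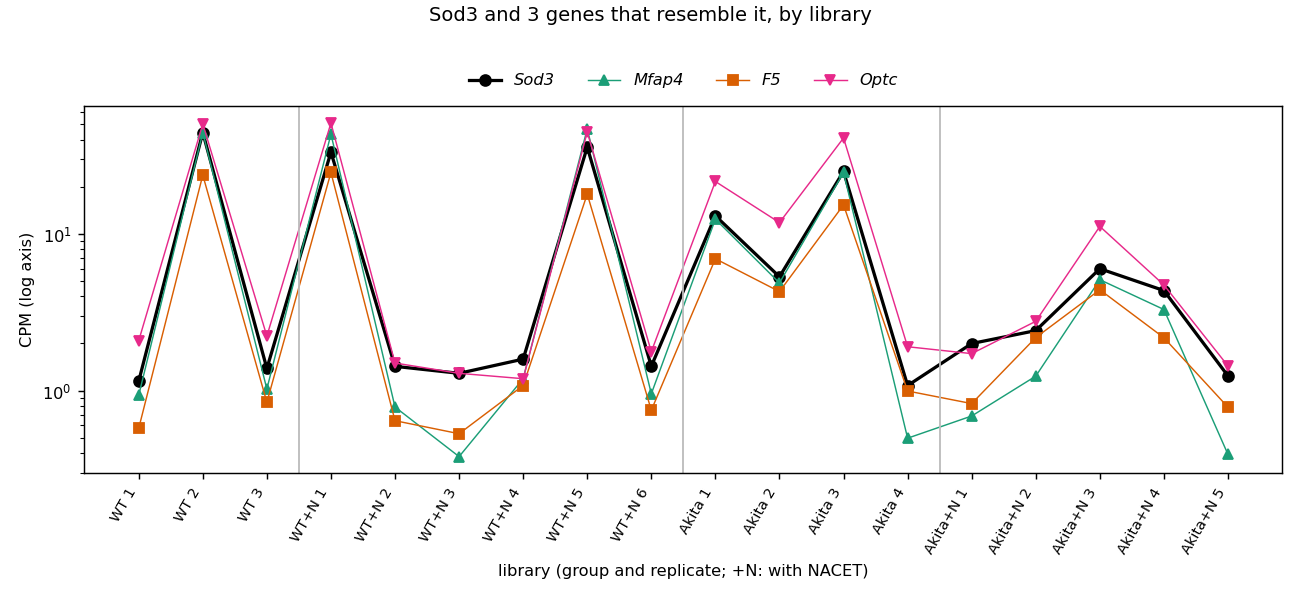
Sod3 and 3 genes that resemble it (Mfap4, F5 and Optc) in CPM on a log axis, by library in the order of groups and replicates. All 4 lines rise in WT replicate 2, WT + NACET replicates 1 and 5 and Akita replicates 1 and 3, and fall in Akita replicate 4, where Sod3 has 1.08 CPM.

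Cat was higher in WT + NACET than in any other group. Its level was 32.7, 31.3 and 29.6 CPM in WT, and in WT + NACET the lowest was 42.1, the median 45.9 and the highest 47.6 CPM. In Akita it was 35.2, 36.2, 32.7 and 27.1 CPM. In Akita + NACET it was 33.8, 30.6, 29.7, 28.8 and 27.2 CPM. The 6 WT + NACET libraries lay above all others, and the remaining groups overlapped. Cat was 1.46-fold higher in WT + NACET than in WT (log2 0.54 ± 0.10 SE, edgeR adjusted p = 0.00482). It was lower in Akita + NACET than in WT + NACET (log2 -0.60 ± 0.08 SE, edgeR adjusted p = 0.000138). Akita + NACET and Akita differed by -0.13 on the log2 scale, with a 95% interval from -0.30 to 0.04, and the interaction was -0.67 ± 0.13 SE on the log2 scale (edgeR adjusted p = 0.00306). Akita and WT differed by 0.07 on the log2 scale, with an interval from -0.13 to 0.27.

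Beside the Cat result, several marker lists were higher in the same libraries. Of the 10 microglia markers, all detected, 7 were called lower in Akita + NACET than in WT + NACET, against 13.3% of all genes. In WT + NACET vs WT 1 was called higher, against 1.48%, and for the interaction 1 was called negative, against 20.3%. The 10 markers summed to 87.8 to 123 CPM in WT + NACET and 59.6 to 86.6 CPM in WT. The sum was 42.9 to 83.7 CPM in Akita and 48.7 to 76.8 CPM in Akita + NACET. Cat moved with this sum (r = 0.81, permutation p = 5e-05, adjusted p = 0.00105 over 63 pairs; rho = 0.81, permutation p = 0.00013, adjusted p = 0.00441; n = 18), at 0.79 without the 2 farthest libraries and 0.49 within groups. It also moved with the pigment epithelium sum (r = 0.65, permutation p = 0.00485, adjusted p = 0.0201; rho = 0.63, permutation p = 0.00563, adjusted p = 0.0296; r = 0.68 without the 2 farthest libraries and 0.37 within groups). In an edgeR fit with the log2 pigment epithelium sum as a covariate, tried after the data were seen, Cat was 0.47 ± 0.11 SE higher in WT + NACET than in WT and was no longer called (adjusted p = 0.0899, with 50 genes called in all in place of 240), while Akita + NACET vs WT + NACET stayed called at -0.54 (adjusted p = 0.00504). The outside-exon share as a covariate left both of these calls in place. The Cat interaction was then -0.75, larger than without the covariate, and was not called (adjusted p = 0.197) in a fit that called 17 genes in all in place of 3289. Cat moved as well with the sums of 10 pericyte and smooth muscle markers (r = 0.70, permutation p = 0.00073, adjusted p = 0.00532; rho = 0.67, permutation p = 0.00355, adjusted p = 0.0224) and of 13 Mueller glia and astrocyte markers (r = 0.65, permutation p = 0.00225, adjusted p = 0.0109; rho = 0.66, permutation p = 0.00329, adjusted p = 0.0224), with r of 0.69 and 0.61 without the 2 farthest libraries and 0.44 and 0.40 within groups. The pericyte and smooth muscle sum was 40.4 to 62.6 CPM in WT, 58.1 to 129 CPM in WT + NACET, 25.9 to 51.0 CPM in Akita and 44.7 to 65.8 CPM in Akita + NACET. The part of microglia, pericytes and glia in the Cat result was not tested.

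Mt1 and Mt2, the inducible metallothioneins, had higher mean levels with NACET in both genotypes, and of these differences only that of Mt2 in the diabetic retina passed the test. Mt2 had 5.10, 9.43 and 4.70 CPM in WT, and a lowest value of 7.98, a median of 9.39 and a highest of 12.3 CPM in WT + NACET. In Akita it had 7.01, 5.56, 5.59 and 3.73 CPM. In Akita + NACET it had 6.89, 11.96, 8.68, 9.13 and 8.49 CPM. WT replicate 2 stood level with the treated libraries, and 4 of 5 Akita + NACET libraries exceeded all Akita libraries. Mt2 was 1.65-fold higher in Akita + NACET than in Akita (log2 0.72 ± 0.22 SE, edgeR adjusted p = 0.0422). The same difference in WT was 0.62 ± 0.23 SE and did not pass (edgeR adjusted p = 0.149), and the interaction was 0.10 with a 95% interval from -0.51 to 0.71. These values rested on 45 to 203 counts per library.

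Mt1 had 39.3, 66.3 and 37.6 CPM in WT, and a lowest value of 48.6, a median of 63.7 and a highest of 82.4 CPM in WT + NACET. In Akita it had 43.3, 36.8, 48.3 and 25.8 CPM. In Akita + NACET it had 47.9, 63.8, 60.2, 52.4 and 56.3 CPM. As for Mt2, 4 of 5 Akita + NACET libraries exceeded all Akita libraries and WT replicate 2 lay among the treated ones. The log2 difference was 0.54 ± 0.18 SE in Akita + NACET vs Akita (edgeR adjusted p = 0.0674) and 0.43 ± 0.20 SE in WT + NACET vs WT (edgeR adjusted p = 0.233). DESeq2 called Mt1 in Akita + NACET vs Akita, at an adjusted p of 0.0335 with all groups in the fit. Averaged over both genotypes, a contrast chosen after the data were seen, NACET gave 0.67 ± 0.16 SE for Mt2 (edgeR adjusted p = 0.114) and 0.49 ± 0.13 SE for Mt1 (edgeR adjusted p = 0.213). Neither passed with edgeR, and 0 of the 7 genes were called there, against 0.222% of all genes tested. At an unadjusted p under 0.05 there were 1343 genes in this contrast, and DESeq2 called both Mt1 and Mt2. Without WT replicate 2, edgeR called both as well, at 0.64 for Mt1 (adjusted p = 0.0266) and 0.86 for Mt2 (adjusted p = 0.0120). Leaving out that library moved WT + NACET vs WT to 0.74 for Mt1 (edgeR adjusted p = 0.0995) and 0.9999 for Mt2 (edgeR adjusted p = 0.0708). WT replicate 2 had a pigment epithelium sum of 810 CPM, against 166 and 209 CPM in WT replicates 1 and 3. Its Mueller glia and astrocyte sum was 5590 CPM, against 4095 and 3509 CPM. The part of cell composition in the calls gained without WT replicate 2 was not tested.

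Mt1 and Mt2 rose and fell together across libraries (r = 0.93, permutation p = 1e-05, the smallest possible with 100000 permutations, adjusted p = 0.00021 over 21 pairs; rho = 0.92, permutation p = 1e-05, adjusted p = 0.00021; n = 18). This r was 0.89 without the 2 farthest libraries and 0.88 within groups. The Mt2 count was 11.6% to 18.7% of the Mt1 count in each library. Sod1 and Mt3 also moved together (r = 0.82, permutation p = 0.00014, adjusted p = 0.00147; rho = 0.75, permutation p = 0.00055, adjusted p = 0.00577), with 0.65 without the 2 farthest libraries and 0.86 within groups. Of the other 19 pairs, Mt1 with Mt3 reached an adjusted p of 0.0268 for r (r = 0.65, permutation p = 0.00383) but not for rho (rho = 0.60, permutation p = 0.0101, adjusted p = 0.0706), and its r was 0.33 without the 2 farthest libraries.

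The metallothionein levels also moved with the markers of several cell types. Of 10 pericyte and smooth muscle markers, 2 were called higher in Akita + NACET than in Akita, against 9.65% of all genes. This list was the closest, and its sums in CPM are given beside Cat. For Mt1 its r was 0.79 (permutation p = 0.00023, adjusted p = 0.00362 over 63 pairs; rho = 0.80, permutation p = 0.00014, adjusted p = 0.00441), with 0.76 without the 2 farthest libraries and 0.59 within groups, and for Mt2 0.71 (permutation p = 0.0009, adjusted p = 0.00567; rho = 0.75, permutation p = 0.00046, adjusted p = 0.00724), with 0.63 and 0.47. The microglia sum gave r = 0.65 for Mt1 (permutation p = 0.00325, adjusted p = 0.0146; rho = 0.64, permutation p = 0.00481, adjusted p = 0.0275) and 0.59 for Mt2 (permutation p = 0.0105, adjusted p = 0.0314; rho = 0.57, permutation p = 0.0147, adjusted p = 0.0579), with 0.51 and 0.41 without the 2 farthest libraries and 0.72 and 0.71 within groups. Mt2 followed the pigment epithelium sum (r = 0.69, permutation p = 0.0018, adjusted p = 0.0095 over 63 pairs; rho = 0.61, permutation p = 0.00822, adjusted p = 0.037; n = 18), with 0.56 without the 2 farthest libraries and 0.38 within groups. For Mt1 the values were r = 0.75 (permutation p = 0.00038, adjusted p = 0.00479), rho = 0.75 (permutation p = 0.00059, adjusted p = 0.00743), 0.63 without the 2 farthest libraries and 0.46 within groups. Of the 10 pigment epithelium markers, all were detected and 0 were called in any of the 6 comparisons, against 0.00618% to 20.3% of all genes. Their median log2 difference was -1.40 in Akita vs WT and 0.97 in Akita + NACET vs Akita. It was 1.19 in WT + NACET vs WT and -1.37 in Akita + NACET vs WT + NACET, so the lack of calls does not show equal levels. With the log2 sum of these markers as a covariate, the Mt2 difference in Akita + NACET vs Akita was 0.51 ± 0.24 SE. It was no longer called (edgeR adjusted p = 0.2002), and the Mt1 difference was 0.35. The outside-exon share as a covariate also ended the Mt2 call, with a difference of 0.76 (edgeR adjusted p = 0.628). With either covariate 0 of all 16183 genes were called in this comparison, so the loss was not particular to Mt2. Mt1 and Mt2 followed the sum of 13 Mueller glia and astrocyte markers as well, with r = 0.73 and 0.62 (permutation p = 0.00076 and 0.0051, adjusted p = 0.00532 and 0.0201) and rho = 0.70 and 0.61 (permutation p = 0.00153 and 0.00888, adjusted p = 0.012 and 0.0373), and r was 0.57 and 0.41 without the 2 farthest libraries and 0.74 and 0.66 within groups. That sum was 3509 to 5590 CPM in WT, 4481 to 6168 CPM in WT + NACET, 2217 to 4371 CPM in Akita and 3523 to 3964 CPM in Akita + NACET, and the part of these cell types in the result was not tested. Akita + NACET replicates 3 and 5 had pigment epithelium sums of 205 and 105 CPM, within the range of Akita, and Mt2 levels of 8.68 and 8.49 CPM, above the highest Akita level. Akita + NACET replicate 1 had the highest sum of its group, 727 CPM, and the lowest Mt2, 6.89 CPM. In WT replicates 1, 2 and 3, sums of 166, 810 and 209 CPM stood beside Mt2 levels of 5.10, 9.43 and 4.70 CPM. The part of pigment epithelium in the Mt2 result was not tested. Mt2 also lost its call without any 1 of Akita replicates 2, 3 or 4 or Akita + NACET replicates 2, 4 or 5, with adjusted p from 0.0640 to 0.125, while 1 to 1511 genes in all were called.

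**Figure D4:**
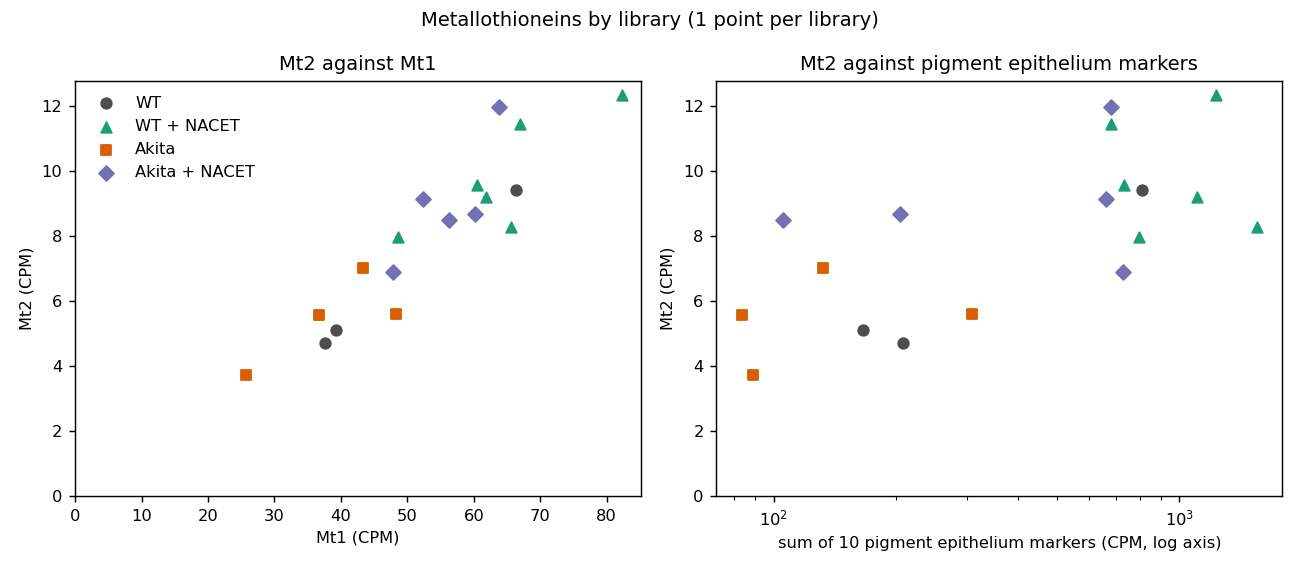
Mt2 against Mt1 (left) and against the sum of 10 pigment epithelium markers on a log axis (right), in CPM, 1 point per library, by group. Mt1 and Mt2 lie along 1 line (r = 0.93), and Mt2 is at most 7.01 CPM in the 4 Akita libraries. In the right panel Akita + NACET replicates 3 and 5 sit at Akita levels of the markers with more Mt2. Akita + NACET replicate 1 has the highest marker sum of its group and the lowest Mt2, 6.89 CPM.

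Mt3, the form of nervous tissue, was not called in any comparison. It had 17.2, 17.99 and 15.0 CPM in WT and 17.1, 13.7, 18.8 and 9.37 CPM in Akita. In Akita + NACET it had 17.3, 16.7, 19.8, 16.0 and 10.5 CPM, and in WT + NACET a lowest value of 13.7, a median of 17.7 and a highest of 22.5 CPM. The groups overlapped, and the lowest values were again in Akita replicate 4 and Akita + NACET replicate 5. Its difference in Akita + NACET vs Akita was 0.12 on the log2 scale, with a 95% interval from -0.26 to 0.50. It moved with 9 ganglion cell markers (r = 0.83, permutation p = 5e-05, adjusted p = 0.00105; rho = 0.71, permutation p = 0.00113, adjusted p = 0.0102; n = 18), at 0.70 without the 2 farthest libraries and 0.81 within groups. Mt3 moved with other marker sums as well. Its r was 0.68 for microglia, 0.62 for pericytes and smooth muscle, 0.60 for pigment epithelium and 0.59 for Mueller glia. Their permutation adjusted p ran from 0.0095 to 0.0342 for r and from 0.112 to 0.158 for rho. Sod1 also moved with the ganglion cell markers (r = 0.66, permutation adjusted p = 0.0314, and rho = 0.75, permutation adjusted p = 0.00871). With the microglia markers the r of Sod1 was higher, at 0.70 (permutation adjusted p = 0.00532), and rho was 0.57 (permutation adjusted p = 0.0579). The part of these cell types was not tested.

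Counted over the 7 genes, edgeR called 1 in Akita vs WT (Sod2), against 7.64% of all genes tested, and 2 in Akita + NACET vs Akita (Sod2 and Mt2), against 9.65%. It called 1 in WT + NACET vs WT (Cat), against 1.48%, and 1 in Akita + NACET vs WT + NACET (Cat), against 13.3%. The interaction of genotype with NACET called 2 (Sod2 and Cat), against 20.3%. Akita + NACET vs WT called 0 of the 7, against 0.00618% of all genes, which is 1 gene, and DESeq2 called 0 of the 7 as well. At an unadjusted p under 0.05 that comparison had 750 genes, Mt2 the only 1 of the 7 among them (log2 0.51). With so few members these counts were not read as differing from the background. The median log2 difference of the 7 genes ran from -0.20 in Akita + NACET vs WT + NACET to 0.21 in WT + NACET vs WT, and that of all genes from -0.01 to 0.00. Comparisons that share a group are not independent of each other.

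**Figure D5:**
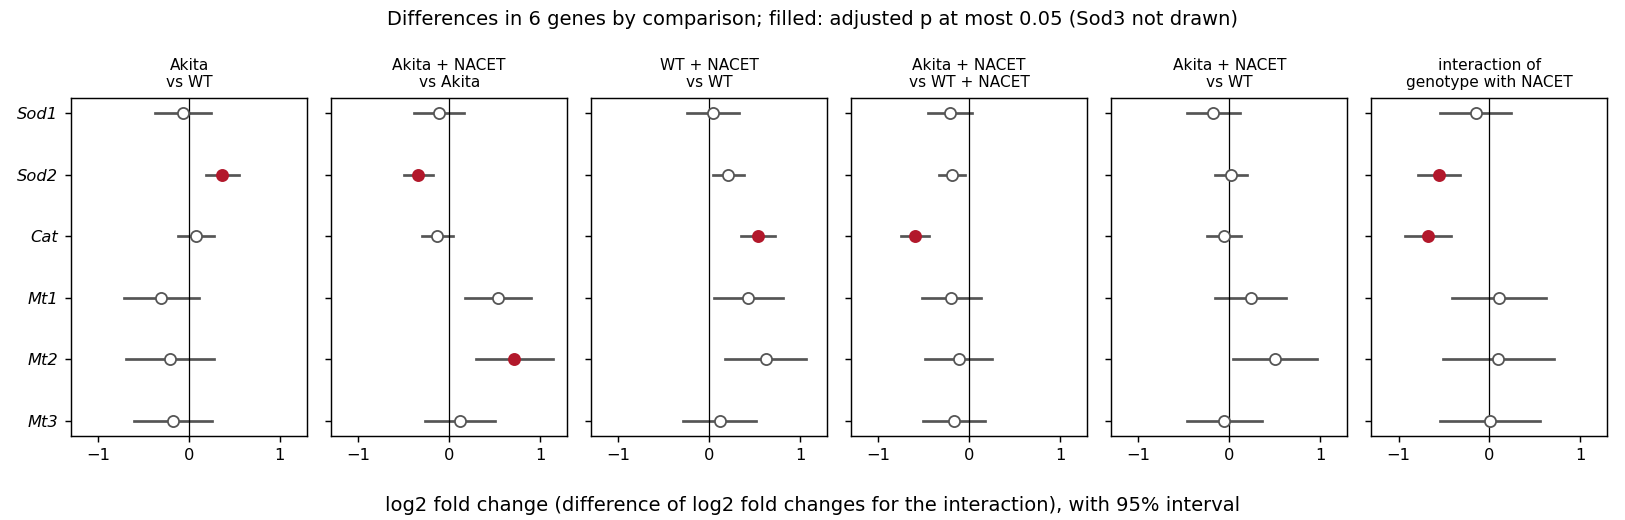
Log2 fold change with its 95% interval for 6 of the genes in 5 comparisons and, in the last panel, the difference between the NACET effects of the 2 genotypes. Filled points passed an adjusted p of at most 0.05 (edgeR). Sod2 passes in opposite directions in Akita vs WT and Akita + NACET vs Akita, Cat passes where WT + NACET is compared, and Sod3, whose intervals span several log2 units, is not drawn.

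Genes that supply or surround these enzymes were counted as lists. Of 8 genes for copper supply, all tested, Ccs, the chaperone that loads copper into Sod1, was lower in Akita + NACET than in Akita (log2 -0.44 ± 0.10 SE, edgeR adjusted p = 0.0202) and than in WT + NACET (log2 -0.44 ± 0.09 SE, edgeR adjusted p = 0.00385). Cox17, a copper chaperone for the respiratory chain, was lower in the latter comparison as well (log2 -0.44 ± 0.09 SE, edgeR adjusted p = 0.00467), and both had a negative interaction. The list had 0 calls in Akita vs WT and in WT + NACET vs WT, against 7.64% and 1.48% of all genes. Of all genes, 9.65% were called in Akita + NACET vs Akita, 13.3% in Akita + NACET vs WT + NACET and 20.3% for the interaction.

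Among 19 tested genes of zinc transport and MTF1 regulation, Slc30a9 and Slc39a6, both zinc transporter genes, were higher in Akita than in WT (log2 0.42 and 0.46, edgeR adjusted p = 0.0401 and 0.0222) and lower in Akita + NACET than in Akita (log2 -0.35 and -0.40, edgeR adjusted p = 0.0414 and 0.0214). Slc30a6 was lower in Akita + NACET than in WT + NACET (log2 -0.34, edgeR adjusted p = 0.0109). The list had 0 calls in WT + NACET vs WT, against 1.48% of all genes, and 2 negative interactions, against 20.3%. In the other comparisons named here, the shares over all genes were 7.64% in Akita vs WT and 9.65% in Akita + NACET vs Akita. In Akita + NACET vs WT + NACET the share was 13.3%. Mtf1 itself, at 38.2 to 53.1 CPM over all libraries, was not called in any comparison. Nor was Slc30a1, at 4.23 to 7.91 CPM, the zinc exporter gene that MTF1 induces together with Mt1 and Mt2.

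Of 18 tested genes of peroxisomal import and oxidases, the surroundings of catalase, Pex3 and Pex14 were higher in Akita than in WT (log2 0.45 and 0.30, edgeR adjusted p = 0.0445 and 0.0489), and 3 were lower in Akita + NACET than in Akita, Pex7 and Pex14 among them (log2 -0.32 and -0.34, edgeR adjusted p = 0.0415 and 0.0210). Pex3, which is needed to form the peroxisomal membrane, was the only one called in WT + NACET vs WT (log2 0.54, edgeR adjusted p = 0.0306). In Akita + NACET vs WT + NACET, 5 were lower, and 6 had a negative interaction. Beside these counts, 7.64% of all genes were called in Akita vs WT, and 9.65% in Akita + NACET vs Akita. The share was 1.48% for WT + NACET vs WT. It was 13.3% between the treated groups and 20.3% for the interaction. Whether the list departs from these shares was not tested. Pex5, the receptor that imports catalase, was at 23.2 to 33.2 CPM and was not called.

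Of 12 glucocorticoid response genes, examined because glucocorticoids induce Mt1 and Mt2, Dusp1, a phosphatase gene, was lower in WT + NACET than in WT (log2 -1.07 ± 0.17 SE, edgeR adjusted p = 0.00230), and 5 genes were higher in Akita + NACET than in WT + NACET, with Dusp1 (log2 0.96), the clock gene Per1 (log2 0.84) and the chaperone gene Fkbp5 (log2 0.79) among them. Of all genes, 1.48% were called in WT + NACET vs WT and 13.3% in Akita + NACET vs WT + NACET. The list had 0 calls in Akita vs WT and in Akita + NACET vs Akita, in which 7.64% and 9.65% of all genes were called. Of 14 genes that produce superoxide, such as the NADPH oxidase subunits Cybb and Cyba, 7 passed the filter and 0 were called in the 6 comparisons. The shares over all genes ran from 0.00618% in Akita + NACET vs WT to 20.3% for the interaction. The medians of the lists for copper supply, zinc and peroxisomes lay between -0.16 and 0.16 on the log2 scale in all 6 comparisons. That of the superoxide sources was 0.75 in WT + NACET vs WT and -0.39 in Akita + NACET vs WT + NACET, and that of the glucocorticoid genes -0.19 and 0.46. The medians of the superoxide sources rest on 7 uncalled genes at low levels. All 14 together summed to 10.5 to 20.9 CPM in WT and 9.36 to 23.5 CPM in WT + NACET, with overlapping ranges.

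Genes with patterns most like the remaining members were Myl12b for Sod1 (r = 0.919), Tcea1-ps1 for Sod2 (r = 0.968), Trappc2l for Cat (r = 0.948), F3, the tissue factor gene, for Mt1 (r = 0.874), Mpzl1 for Mt2 (r = 0.836) and Nagk for Mt3 (r = 0.891), over 18 libraries. The lipid droplet gene Plin2 was second for both Mt1 (r = 0.847) and Mt2 (r = 0.809), and Sod2 had the most close genes, 59 above 0.9. These are descriptions of libraries that share depth and composition, without a test.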

How the data were processed

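Raw read counts per gene were taken as deposited by the authors, 1 file for each of the 18 libraries. Per the labels and the study's methods, poly(A) RNA was prepared with the TruSeq RNA v2 kit, sequenced single end, aligned to mm9 with TopHat2 2.1.0 and counted over exons with HTSeq 0.11.2 without regard to strand, so that reads aligned to several places do not enter. The kit selects poly(A), and the counts hold no measure of protein. As in the study, 185 ribosomal RNA genes were removed. Entries without a gene name held at most 0.00596% of the counts and were left out.

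Differences were tested with edgeR 4.0.16 in R 4.3.3 (quasi-likelihood F test, TMM, minimum count 10, minimum total 15, all 4 groups in 1 fit), adjusted after Benjamini and Hochberg over 16183 genes and called at 0.05 with no minimum fold. The SE follows from the F statistic and the 95% interval from the SE. DESeq2 1.42.0, the tool of the study, was an alternative. Correlations used log2 CPM (prior count 2) and 100000 permutations, two-sided. Depth was 11495596 to 17814480 counts, so a gene such as Mt2, with 45 to 203 counts, has the larger counting error. No 2 replicates agreed within sampling noise (chi-square per gene of 4.82 or more).

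The members and lists were chosen with earlier results of these data known. All members are named, and of each list at most 3 called genes per direction and comparison, by p. For each member the most similar genes are those of highest r. Some genes these rules select are not reported here. Shared replicate numbers did not pair the libraries (correlations of deviations from -0.33 to 0.34 over all pairs, with 0 to 2 pairs of a comparison over 0.1). Alternatives were DESeq2 size factors, DESeq2, fits of 2 groups, testing without a filter, a minimum mean count of 50, a replicate block, the outside-exon share as a covariate, and each library left out. The averaged NACET contrast and the pigment epithelium covariate were added after the data were seen.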

Additional observations from a re-analysis of the deposited data

Results flagged for a closer look

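The NACET effect on 2 genes differed between genotypes by the interaction term of the edgeR fit, a test of the difference itself, which called 20.3% of all genes, so that 2 of the 7 is not read as particular to them. The NACET effect on Cat was 0.54 in WT and -0.13 in Akita on the log2 scale, a difference of -0.67 (adjusted p = 0.00306). For Sod2 it was 0.21 in WT and -0.34 in Akita, a difference of -0.55 (adjusted p = 0.00552). Both directions held in every alternative that was run. With the outside-exon share as a covariate the Cat difference was -0.75 (adjusted p = 0.197) and that of Sod2 -0.29 (adjusted p = 0.580), where 17 genes in all were called. By Dixon's ratio of the gap beside an extreme library to the range of its group, 0 of 21 sets of 4 to 6 libraries (7 genes in 3 groups) held a library that stood apart. The 3 WT libraries were too few for this, and there replicate 2 had Sod3 at 44.4 CPM against 1.15 and 1.38 CPM. The ratio also misses a group that splits, as WT + NACET did for Sod3.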

How the results depend on the processing

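Over 972 alternative values of the 7 genes, 889 kept direction and call, 25 lost their call, 7 gained one and 51 turned sign, and the cause was not tested. Where the number of members called fell, so did the calls over all genes. The number of genes called fell from 1 to 0 in Akita vs WT with edgeR on 2 groups, the replicate block, the share of reads outside exons or the pigment epithelium sum as covariates (over all genes 148, 507, 0 and 303 calls in place of 1237). In Akita + NACET vs Akita it fell from 2 to 1 with edgeR on 2 groups and to 0 with the replicate block or either covariate (over all genes 700, 219, 0 and 0 in place of 1562). In WT + NACET vs WT it fell from 1 to 0 with the pigment epithelium covariate (50 in place of 240), and for the interaction from 2 to 0 with the share of reads outside exons (17 in place of 3289). In the averaged NACET contrast DESeq2 gave 2 in place of 0. With 1 library left out the counts ran from 0 to 1, 0 to 2, 1 to 1, 1 to 2 and 0 to 0 in the 5 comparisons of groups as listed above (Akita vs WT, Akita + NACET vs Akita, WT + NACET vs WT, Akita + NACET vs WT + NACET, Akita + NACET vs WT), 2 to 2 for the interaction and 0 to 2 for the averaged contrast.

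The replicate numbers did not pair the libraries. With the replicate block Sod2 was not called in Akita vs WT (adjusted p = 0.0611) or in Akita + NACET vs Akita (adjusted p = 0.0558), nor Mt2 in the latter (adjusted p = 0.0651), while the calls of Cat and of the interaction held. The block turned Cat to 0.0035 and Mt3 to 0.026 in Akita + NACET vs WT and Sod1 to 0.012 in the averaged contrast.

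All results that turned sign were uncalled. The share of reads outside exons turned Sod1 to 0.17 in Akita + NACET vs Akita, -0.19 in WT + NACET vs WT, 0.00070 in Akita + NACET vs WT + NACET and 0.36 in the interaction, and Mt3 to -0.11 in WT + NACET vs WT and 0.043 in Akita + NACET vs WT + NACET. The pigment epithelium sum turned Sod1 (0.086), Sod3 (0.94) and Mt3 (0.017) in Akita vs WT, Mt3 (-0.13) in Akita + NACET vs Akita, Sod1 (-0.18) and Mt3 (-0.19) in WT + NACET vs WT, Mt1 (0.021), Mt2 (0.080) and Mt3 (0.074) in Akita + NACET vs WT + NACET, and Mt3 (-0.16) in the averaged contrast. DESeq2 size factors (-0.0076) and DESeq2 (-0.011) turned Mt3 in the interaction. With 1 library left out, log2 differences that turned ran in Akita vs WT from -0.14 to 0.031 (Sod1), -1.24 to 3.13 (Sod3), -0.46 to 0.0073 (Mt1) and -0.41 to 0.17 (Mt2), in Akita + NACET vs Akita from -0.21 to 0.0067 (Sod1) and -0.041 to 0.26 (Mt3), and in WT + NACET vs WT from -0.0050 to 0.077 (Sod1) and -0.97 to 3.30 (Sod3). In Akita + NACET vs WT they ran from -0.031 to 0.073 (Sod2), -2.82 to 1.33 (Sod3) and -0.14 to 0.063 (Mt3), in the interaction from -0.20 to 0.27 (Mt1), -0.28 to 0.30 (Mt2) and -0.16 to 0.14 (Mt3), and in the averaged contrast from -0.083 to 0.023 (Sod1) and -1.39 to 0.75 (Sod3). The Sod3 turns came without WT replicate 2. Mt2 rests on 45 to 203 counts per library, and Sod3 is limited by the spread between libraries.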
